A study of Mus musculus with 6 samples.

Results

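The data described here are the baseline transcriptome of mouse embryonic stem cells of the E14 line that carried a control shRNA: 3 of the 6 Illumina bead arrays of a study of the chromatin remodelling protein Tip5, which the Baz2a gene encodes. The 3 control arrays were chosen by their labels and not by a measured value, and each is 1 transfection of wild type E14 cells with a non-specific shRNA in the pSuper vector, delivered with the Amaxa Nucleofector, kept for 6 days under antibiotics and harvested as total RNA at passage 3. The remaining 3 arrays come from E14 cells that received Tip5 shRNAs in the same vector, combined under different selection markers, and they enter below only as readings beside a control value, with no contrast between the groups. Both groups grew on gelatin without a named feeder layer, in a medium holding LIF at 1000 U/ml and 20% serum of bovine origin, so every value below belongs to selected, serum-grown cells of 1 line. The labels call the replicates separate transfections and do not say whether they ran in parallel.

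As background, embryonic stem cells are derived from the inner cell mass of the blastocyst and keep the ability to form every lineage of the embryo. Pou5f1, Sox2 and Nanog form the core of the transcription factor network that holds this state, and Esrrb, Klf factors, Tbx3 and Zfp42 mark its naive form, which LIF sustains through Stat3. In serum and LIF such cultures are known to be mixed, with small numbers of cells that start a lineage or switch on genes of the early cleavage embryo. In bulk RNA, fewer cells of a type and less RNA per cell cannot be told apart.

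A level below is a log2 probe intensity after background correction, an added offset of 16 and quantile normalization. A difference of 1 is a doubling of the value with its offset, so near the background it is more than a doubling of the corrected signal. The lowest level that was still detected was between 5.05 and 5.09 on the 3 arrays. A probe was called detected where the deposited detection p-value was under 0.05, and a gene where at least 1 of its probes was. Brightness depends on the probe as well as on the transcript, so ranks over the 16593 named genes are ranks of signal. No test was made within a group of 3, and the number of arrays limits the precision of every level.

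The 5 genes that mark the cells were detected on all 3 arrays. Pou5f1, the octamer-binding factor Oct4, read 12.88, 12.84 and 12.88 in replicates 1, 2 and 3, which is rank 291. Esrrb, an orphan nuclear receptor, read 13.80, 13.78 and 13.51 at rank 106. Zfp42, the zinc finger protein Rex1, read 12.64, 12.82 and 13.42 at rank 270. These 3 genes lay in the brightest few percent of genes on their brightest probes. A second Pou5f1 probe read 12.51, 12.35 and 12.97, so the narrow spread of the brightest probe, an SD of 0.03, was not shared by the other. Nanog read 11.80, 11.37 and 12.65 at rank 680. Sox2 read 10.65, 10.63 and 9.98 at rank 1863. Both sat well above the detection limit on every array, with replicate 3 the highest array for Nanog and the lowest for this Sox2 probe. The second Sox2 probe, also detected on all 3 arrays, had replicate 3 highest, with 5.91, 6.14 and 6.82.

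Whether a gene was detected went with the CpG content of its promoter, which the choice of arrays did not use. RefSeq windows of 300 bases around the gene start, from 250 bases upstream, were matched by gene identifier to 13335 of the 16593 genes (80.4%), on assembly GRCm38.p6. Of 32851 windows for 27025 genes, the first listed window of each gene was kept, so other starts of a gene were not read. The upstream 250 bases of 4 genes are shown to contrast a ribosomal gene of rank 3 (Rps2, chr17:24719813-24720062), the marker Pou5f1 (chr17:35505782-35506031), a silent gene of neural development (Pax6, chr2:105668646-105668895) and a silent gene of the liver (Alb, chr5:90460620-90460869). All 4 stretches lie on the plus strand and run from 5′ to 3′, and capitals mark each CpG dinucleotide.
Rps2: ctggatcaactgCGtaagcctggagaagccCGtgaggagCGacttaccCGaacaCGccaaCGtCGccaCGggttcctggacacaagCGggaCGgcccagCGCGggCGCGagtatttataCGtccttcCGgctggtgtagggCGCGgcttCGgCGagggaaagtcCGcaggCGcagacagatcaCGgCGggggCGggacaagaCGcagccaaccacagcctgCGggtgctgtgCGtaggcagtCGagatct
Pou5f1: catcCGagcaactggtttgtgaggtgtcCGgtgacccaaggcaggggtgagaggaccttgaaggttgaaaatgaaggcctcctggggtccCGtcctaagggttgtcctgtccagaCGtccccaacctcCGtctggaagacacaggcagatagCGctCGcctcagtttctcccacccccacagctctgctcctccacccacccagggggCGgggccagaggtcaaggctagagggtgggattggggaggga
Pax6: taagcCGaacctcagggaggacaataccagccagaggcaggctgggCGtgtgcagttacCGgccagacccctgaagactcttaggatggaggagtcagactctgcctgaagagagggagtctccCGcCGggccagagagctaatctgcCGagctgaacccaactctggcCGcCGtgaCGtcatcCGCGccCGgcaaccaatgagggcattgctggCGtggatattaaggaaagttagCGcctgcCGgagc
Alb: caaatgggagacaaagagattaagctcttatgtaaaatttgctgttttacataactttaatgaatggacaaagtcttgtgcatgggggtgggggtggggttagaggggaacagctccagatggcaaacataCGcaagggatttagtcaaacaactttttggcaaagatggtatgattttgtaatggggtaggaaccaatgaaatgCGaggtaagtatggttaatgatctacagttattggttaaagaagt
The Rps2 stretch held 29 CpG, the Pax6 stretch 15, the Pou5f1 stretch 8 and the Alb stretch 2. The ratio of CpG observed to expected from the C and G content was 1.10 for Rps2, 0.65 for Pax6, 0.33 for Pou5f1 and 0.26 for Alb. Pou5f1 was thus bright with few CpG, and Pax6, which specifies eye and forebrain, was at the background with more of them.

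Over all matched genes, the share detected on all 3 arrays was higher in each higher band of the CpG ratio. Of the 2588 genes with a ratio under 0.2, 12.5% were detected on all 3 arrays, and of 2013 genes from 0.2 to 0.4 it was 25.3%. The share was 48.0% of 1693 genes from 0.4 to 0.6, 64.7% of 2890 from 0.6 to 0.8, and 71.0% of 2977 from 0.8 to 1. Above a ratio of 1 it reached 75.2% of 1174 genes. The share detected on none ran the other way, from 74.8% in the lowest band to 16.3% in the highest. This is a description across genes, which are not independent replicates, and 191 genes above a ratio of 1 were detected on none.

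**Figure D1:**
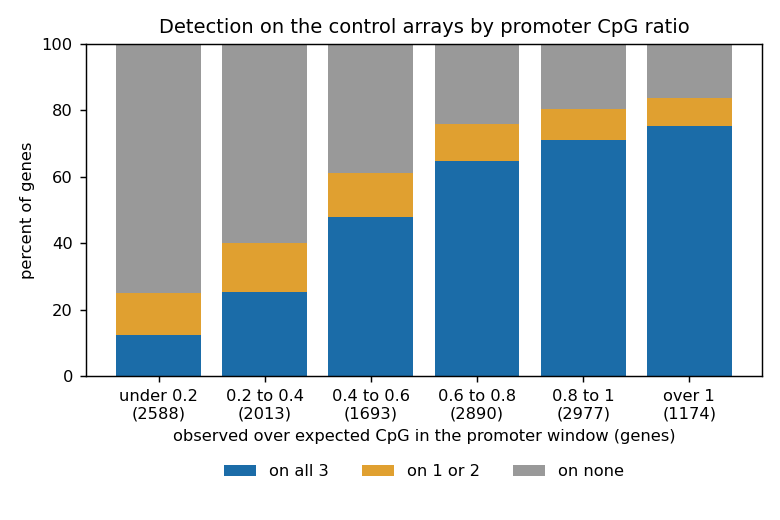
Share of genes (percent) detected on all 3, on 1 or 2 and on none of the control arrays, stacked to 100, by band of the CpG observed over expected ratio in the RefSeq promoter window. The share on all 3 arrays goes from 12.5% in the lowest band to 75.2% in the highest, and the share on none from 74.8% to 16.3%.

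Short motifs were searched on both strands of the windows as exact letters, and none of those named here contains another. Of the 6514 matched genes detected on all 3 arrays, 66.7% held GGGCGG, the core of the GC box, against 50.3% of all measured genes and 35.9% of the 27025 genes in the promoter table. The TATA box letters TATAAA were in 7.03% of them, against 12.7% of all measured genes and 14.2% of the table. Among the 83 of the 100 brightest genes that matched a window, TATAAA was in 14.5%. The E-box CACGTG was in 10.5% of the genes detected on all 3 arrays and 8.45% of all measured genes, and CCAAT in 39.6% and 38.8%. GGGCGG holds a CpG and TATAAA holds only A and T, so their shares are not separate from the base content of the windows. The median GC content was 61.0% for genes detected on all 3 arrays, 57.7% for all measured genes and 52.7% for the promoter table. A match describes the letters of the window and is not a binding site.

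Of the 16593 genes, 7970 (48%) were detected on all 3 control arrays, 1962 (11.8%) on 1 or 2, and 6661 (40.1%) on none. Genes detected on all 3 arrays had a median level of 8.52, with the 5th to 95th percentile from 5.62 to 12.58. Genes detected on none had a median of 4.53 and reached at most 5.03, and the median of all genes was 5.26. The middle class had a median level of 5.01, near the detection limit, with the 5th to 95th percentile from 4.73 to 5.53 and a highest mean of 7.41. Taking any probe of a gene, 330 genes were detected on replicate 1 alone, 316 on replicate 2 alone and 489 on replicate 3 alone. A detection threshold of 0.05 also lets some probes at the background pass on single arrays. By probes, 1829 were detected on 1 array, beside 11212 on none. How many of the single calls were such passes was not tested, so detection on 1 or 2 arrays is weak evidence of signal. The bright end was thin, with 587 genes (3.54%) from 12 to 14 and 65 genes (0.392%) from 14 to 16.

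**Figure D2:**
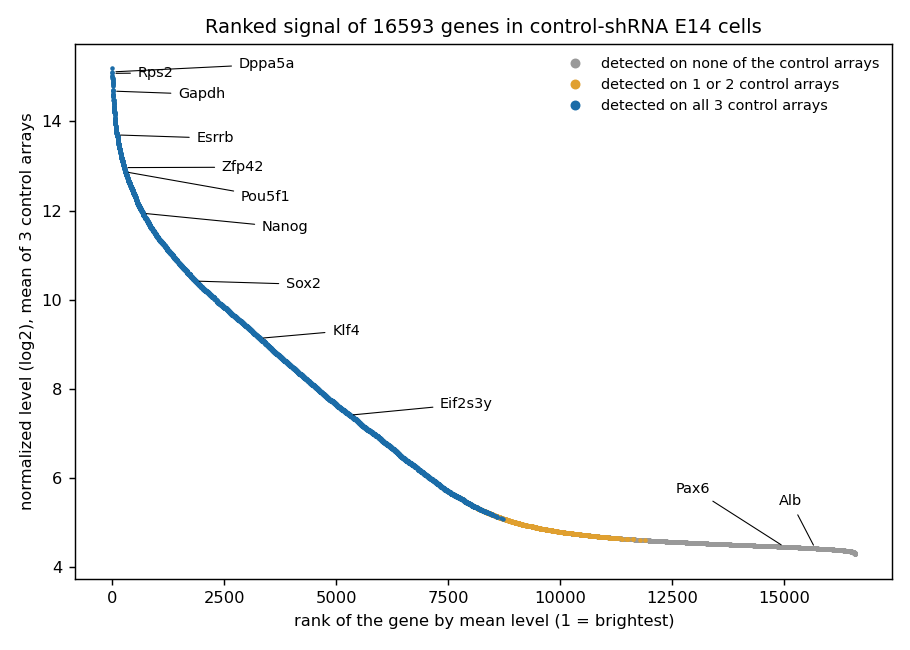
Log2 level of each gene against its rank by mean signal in the control arrays, with named genes marked and points coloured by detection class, which overlap near the background. The curve starts at 15.19 for Rplp1 and flattens at the background, where genes detected on none of the arrays lie at or under 5.03.

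A gene called not detected is a statement about its probes. Of the 4777 genes with several probes, 3069 had at least 1 probe detected on all 3 arrays, and in 1160 of these (37.8%) another probe of the same gene was detected on none. The probes for Rpsa, Rpl6, Rps23 and Rpl17, ribosomal proteins that every cell uses, were detected on no array, and Eef1a1, the main elongation factor, on 1. Absence of signal below is therefore given as not above background and not as absence of the RNA.

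Rplp1, a protein of the ribosomal stalk, led the ranking with 15.21, 15.15 and 15.21. Dppa5a, an RNA-binding protein used as a marker of pluripotent cells, followed with 15.15, 15.21 and 14.96, so that the ranges of the leading pair overlapped. A further probe of Dppa5a read 15.06, 15.10 and 15.05, and another was not above background on any array. Rps2 averaged 15.08, and the ATP synthase subunit Atp5b, Rpl38, Rpl41 and the tubulin Tuba1b stood between 14.98 and 15.01. Rpl9 read 14.94 and the cytokine Mif 14.92. Rps20, the tubulin Tubb5, Rps4x, the histone H2A gene H2ac24, the chaperone Hspa8, the elongation factor subunit Eef1g, Rpl27, the nucleolar chaperone Npm1 and Rps19 filled the ranks down to Gapdh, the glycolytic enzyme at rank 19 with a mean of 14.68. H2ac20, the pre-mRNA-binding protein Hnrnpc, Rpl35, the metal-binding protein Mt1, Ubb-ps, listed as a pseudogene of ubiquitin, and Rpl23 ended the first 25, the last at 14.58. The ranges of neighbours in this order overlapped. Histone H2A genes, tubulins, ribosomal genes and Ubb-ps have near-identical copies, so their signal may hold that of relatives.

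The 100 brightest genes lay at or above 13.72. By name, 34 of them were ribosomal proteins or their near relatives, 8 were subunits of ATP synthase or of the respiratory chain, 4 were Eef or Eif translation factors, and 3 each were H2A histones and tubulins. Their median SD was 0.11, against 0.28 for the 9932 genes detected on at least 1 array. The exception was Cstb, a cathepsin inhibitor, which read 14.14, 14.12 and 13.13 and was the single gene among the 100 whose arrays spanned over 1. Over probes ranked by the deposited signal of replicate 1, the signal of replicate 3 was closest to that of replicate 1 at the bright end. Its deposited signal was 1.08 times that of replicate 1 in the median over probe ranks 1 to 25 and 1.38 times over ranks 26 to 100. Over probe ranks 2001 to 5000 it was 1.74 times, before normalization. Replicate 1 both ranked these probes and is the divisor, so the ratios are not independent of the ranking.

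Gene lists placed these classes in context, 24 in all with 513 measured genes, of which 282 were detected on all 3 arrays. The share of all genes to read each list against is the 48% given above. Cytosolic ribosomal proteins were detected on all 3 arrays for 53 of 59 measured members, with a median level of 13.81, the highest of the lists. Translation factors were detected on all 3 arrays for 14 of 18, led by Eef1g at 14.82, Eif4a1 at 14.30, Eif4a2 at 13.58 and Eef1d at 13.38, while Eif3e, Eif4e and Eif5a2 were not above background.

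Energy metabolism was detected through both of its main routes. In glycolysis, 18 of 21 members were detected on all 3 arrays with a median of 10.87, among them Gapdh, Ldha at 13.81, Tpi1 at 13.72 and the hexokinase Hk2 at 13.48. The 3 members not above background were Gapdhs and Pgk2, known as the forms of the testis, and Pklr, the pyruvate kinase of liver and red cells. In oxidative phosphorylation, 26 of 30 members were detected on all 3 arrays with a median of 12.27, and the list was led by Atp5b, Cox4i1 at 13.73, Cox5b at 13.64 and Cox5a at 13.58. Cox4i2, Cox8b and Ndufs1 were not above background, of which Cox8b is known from muscle and Ndufs1 belongs to complex I in all cells.

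Of the 26 measured genes of core and naive pluripotency, 24 were detected on all 3 arrays and 20 stood at or above 8.52, the median of such genes. The list's own median was 10.96. Behind Dppa5a came Esrrb, then Dppa4, a chromatin-associated protein of pluripotent cells, with 13.37, 13.46 and 13.58. Fbxo15, an F-box protein long used as a reporter locus, read 13.09, 13.06 and 13.18. The Krüppel-like factors ran from Klf2 at 12.35 and Klf5 at 12.12 to Klf4 at 9.13, rank 3298. Lower members were Tbx3 at 8.49, the RNA-binding protein Lin28a at 8.15, the growth factor gene Fgf4 at 8.05, and Rif1, a replication timing factor, at 6.47.

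The 2 members that went against the list were Prdm14 and Nr0b1. Prdm14, a repressor of Fgf signalling and of DNA methylation in naive cells, read 4.81, 4.86 and 4.53. Nr0b1, the orphan receptor Dax1, read 4.52, 4.51 and 4.69. Each was represented by 1 probe, which was not above background on any array. Tfcp2l1, Dppa2, Tet1 and Zfp57 were not analysed here.

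**Figure D3:**
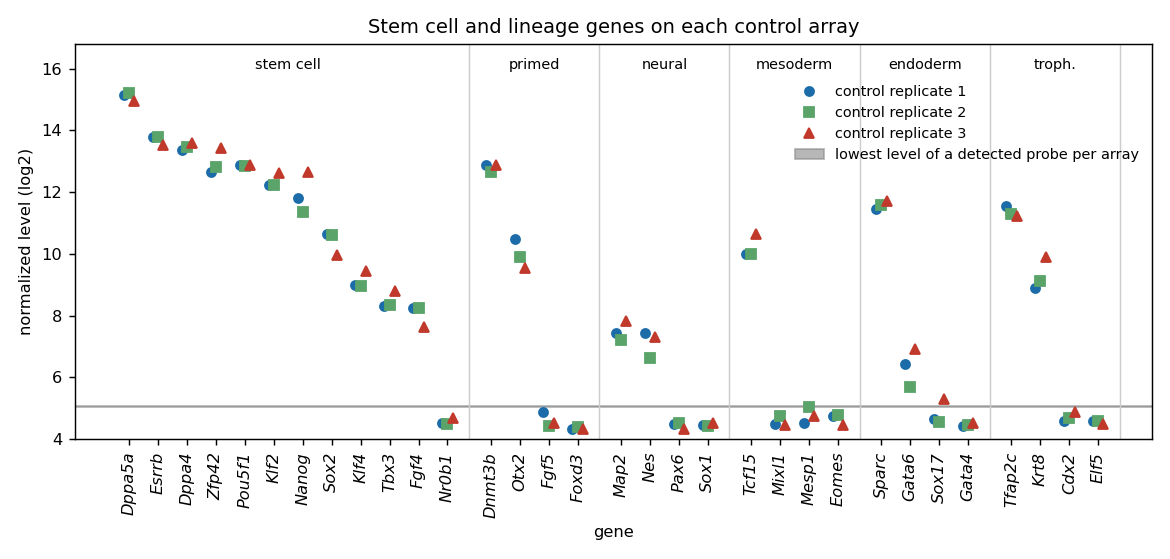
Log2 level of named pluripotency and lineage genes in control replicates 1, 2 and 3, 1 point per array, with the band of lowest detected levels shaded. Pou5f1, Esrrb and Zfp42 lie between 12.64 and 13.80, while Pax6 and Cdx2 lie at the background on every array.

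Genes of the formative and primed states, which mark cells leaving the naive state, were split. Of 14 measured, 7 were detected on all 3 arrays and 6 on none. The de novo DNA methyltransferase Dnmt3b read 12.89, 12.66 and 12.87. The Fgf-responsive factors Etv4 and Etv5 averaged 10.49 and 9.89, and Otx2, a factor of the epiblast and forebrain, read 10.48, 9.91 and 9.53. Fgf5, the classical marker of the primed epiblast, read 4.88, 4.44 and 4.53 and was not above background. Dnmt3a, Zic5, Foxd3, Lef1 and Cdh2 were likewise detected on none.

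The signalling genes on which the culture conditions act were mostly detected, 22 of 29 on all 3 arrays. In the LIF pathway, the receptor chains Lifr and Il6st averaged 6.43 and 7.28, the transducer Stat3 8.84 and its feedback target Socs3 12.54. Among genes of the BMP pathway, which serum feeds, the ligand gene Bmp4 averaged 9.34, Smad1 8.26 and the target Id1 9.63. In the Nodal branch, the antagonist Lefty1 averaged 11.61, Lefty2 10.92 and the ligand gene Nodal 8.33, each on its own probe, so these levels do not rank the transcripts. Ctnnb1, the beta-catenin of the Wnt pathway, averaged 11.83 with an SD of 0.06. Fgfr2, Fgfr3, Fgfr4, Spry2 and Acvr1b were not above background, while Fgfr1, a main Fgf receptor of the epiblast, was detected at 5.67.

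Chromatin regulators were detected for most members. In the list of DNA methylation and H3K9 methylation, 10 of 14 members were detected on all 3 arrays, led by the corepressor Trim28 at 13.77, the cofactor Dnmt3l at 13.64, Dnmt3b at 12.81 and Uhrf1, which recruits Dnmt1 to replicated DNA, at 12.37. Dnmt3a, Tet3 and Cbx3 were not above background. Of 22 Polycomb genes, 17 were detected on all 3 arrays, with Suz12 at 13.18, Phc1 at 12.60, Mtf2 at 11.33 and Pcgf5 at 11.13 the brightest. Jarid2, Phf1 and Cbx6 were not above background. The brightest probe of the methyltransferase gene Ezh2 averaged 10.96, a second detected probe of it 6.55, and the brightest probe of Ezh1 6.20.

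Cell cycle drivers were detected on all 3 arrays for 21 of 27 members. The replicative helicase subunits Mcm5 and Mcm4 stood at 13.41 and 13.33, with Top2a at 12.53 and Cdc20 at 12.48. Bub1, Ccnb2 and Mycn were not above background, although Bub1 and Ccnb2 act in every dividing cell. CDK inhibitors and Rb genes had a median of 6.21 and 7 of 10 detected on all 3 arrays. Cdkn1a, the inhibitor p21, averaged 10.39 and Cdkn1c 10.38, Rb1 stood at 8.09 and Rbl1 at 6.81, and Cdkn1b, Cdkn2b and Rbl2 were not above background.

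Lists of lineage genes differed in how many members were detected, against 48% of all genes on all 3 arrays and 40.1% on none. No member of 18 for liver and pancreas was detected on all 3 arrays and 16 were on none, among them Alb at 4.43, 4.45 and 4.40, Cyp2e1, Cyp7a1, Tat, Fgb and Tdo2. Of 38 Hox genes, which pattern the body axis, 33 were detected on none, and Hoxa13 at 6.36 and Hoxc13 at 5.14 were detected on all 3 arrays. The other Hoxa13 probes, at 4.42 and 4.46, were not above background on any array. Of 19 neural and ectodermal genes, 13 were on none, including Pax6 at 4.50, 4.53 and 4.34, Sox1, Neurog1, Neurog2, Tubb3 and Gfap. The 6 detected ones were low, led by Map2 at 7.50, Krt14 at 7.15, Nes at 7.12 and Syp at 6.91. The other Map2 probes, at 4.73 and 4.66, were not above background on any array.

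Of 16 mesoderm genes, 8 were on none, among them Mixl1, Eomes, Mesp1, Mesp2, Hand1 and Hand2. Tcf15, a factor of the paraxial mesoderm also known from stem cells about to differentiate, went against them at 10.01, 9.99 and 10.65. Gsc at 6.40, Tbx6 at 5.86 and Isl1 at 5.37 were detected on all 3 arrays near the limit, while a second Tbx6 probe at 4.46 was detected on none. Of 18 blood and immune genes, 11 were on none, including the pan-leukocyte gene Ptprc, Cd8a, Hbb-bh1, Hbb-y, Tal1 and Spi1. Hba-a1 was detected on all 3 arrays at 7.16, 6.54 and 5.15, and Cd3e and Klf1 at 5.55 and 5.47.

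The endoderm and trophectoderm lists held a larger share of detected members than the neural, mesoderm, blood, liver and Hox lists. Of 20 endoderm genes, 10 were detected on all 3 arrays, near the 48% of all genes. Its matrix genes led, with Sparc at 11.59, Lama1 at 10.40 and Col4a1 at 8.86, followed by the factor Hhex at 8.65. The defining factors Gata4 and Foxa2 and the secreted markers Afp and Ttr were not above background, nor were Lamb1 and Cer1, and Gata6 read 6.42, 5.70 and 6.93. Of 14 trophectoderm genes, 6 were detected on all 3 arrays, led by Tfap2c at 11.35, Ets2 at 9.74, and the keratins Krt8 at 9.31 and Krt18 at 8.50. Cdx2, which specifies the trophectoderm, read 4.60, 4.67 and 4.89 and was on none, as were Elf5, Tpbpa and Esx1.

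Germ line genes were split evenly, with 12 of 28 detected on all 3 arrays and 12 on none. Rhox5, an X-linked homeobox gene, was the brightest of them with 11.91, 12.26 and 12.19. Tuba3a averaged 11.24, and its probes may also read other tubulins. Ldhc, the lactate dehydrogenase of testis, averaged 9.31 and Piwil2, a Piwi protein, 8.24. The meiotic axis genes Sycp1, Sycp2 and Sycp3 were not above background, nor were Mael, Tex101 and Prm1.

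Markers of muscle and of fibroblasts were read as lists of other cells that a culture could hold. Of 19 muscle genes, 6 were detected on all 3 arrays, led by Mylpf at 9.92, Des at 8.40, Acta1 at 8.23 and Actn2 at 7.60, while the defining factors Myod1, Myf5 and Myf6 and the contractile genes Ckm, Myh1 and Myh4 were not above background. Of 17 fibroblast and feeder genes, 3 were detected on all 3 arrays, namely Acta2 at 11.28, Vim at 9.25 and Thy1 at 8.15. The collagen gene Col3a1 and Postn, Dcn, Lum, Tagln and Lox were on none, and Col1a1 was detected on 1 array. The log2 of the summed fibroblast levels was 12.30, 12.36 and 11.27 in replicates 1, 2 and 3, and it moved with Acta2.

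Of 21 interferon and antigen presentation genes, 8 were detected on all 3 arrays and 10 on none. Irf1 at 11.50 and the class I light chain B2m at 10.53 were the brightest, followed by Irf9 at 7.46 and Stat2 at 7.04. H2-K1, the class I heavy chain that pairs with B2m, was not above background, nor were Psmb8, Irf7, Ifit1, Ifit3 and Oas1a.

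**Figure D4:**
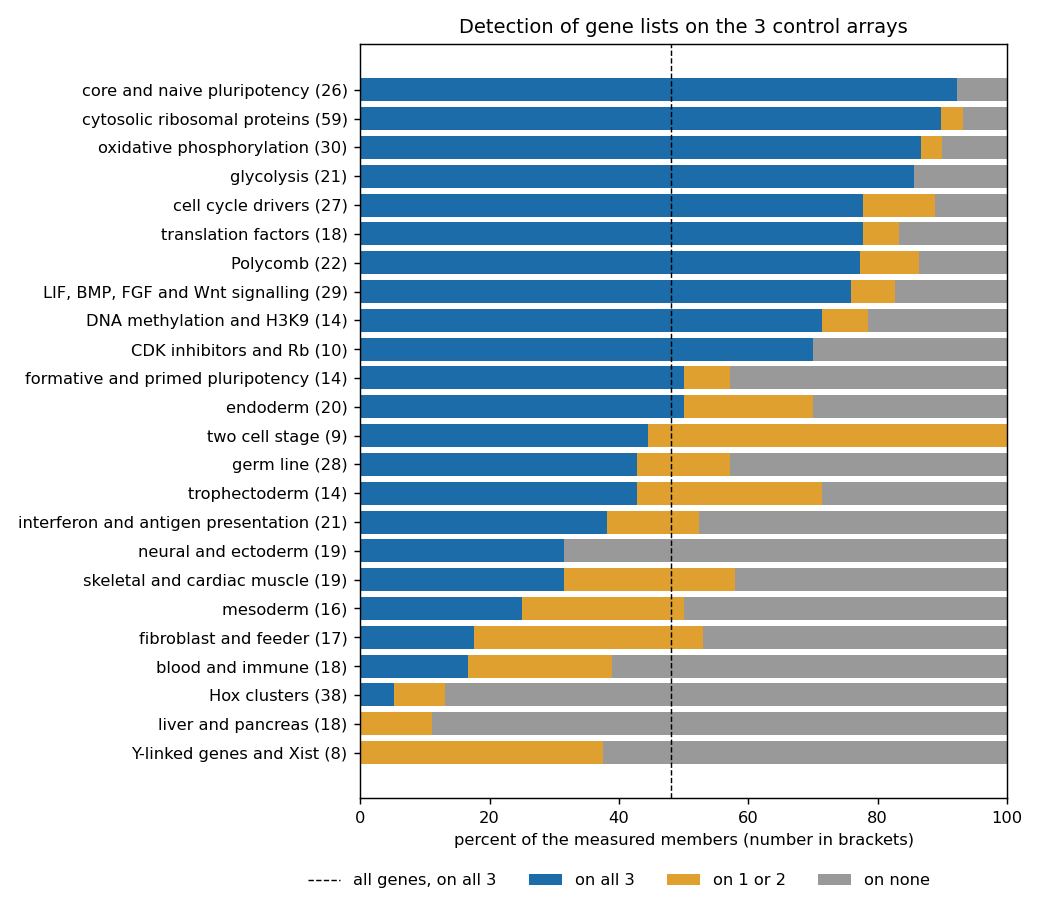
Share of measured members (percent) of each gene list detected on all 3, on 1 or 2, and on none of the control arrays, with the share of all genes detected on all 3 as a line at 48%. Pluripotency, ribosomal and metabolic lists reach past the line, and liver and pancreas, Hox and Y-linked lists have at most 2 members detected on all 3 arrays.

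The 3 arrays were close to each other but not equally so. Over the 9932 genes detected on at least 1 of them, Pearson's r was 0.991 between replicates 1 and 2, 0.969 between 1 and 3 and 0.967 between 2 and 3, and Spearman's rho was 0.983, 0.957 and 0.954. These correlations run across genes of the same arrays and carry no p. The median absolute log2 difference was 0.18 between replicates 1 and 2 and 0.39 and 0.40 between each of them and replicate 3. The number of detected probes did not set replicate 3 apart, with 12910, 12721 and 12923 of 25697. Its median deposited signal was higher, 184 against 134 and 125, and its 100 brightest probes held 15.1% of the background-corrected signal against 19.4% and 19.7%.

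Of the 9932 genes, 1347 (13.6%) spanned over 1 on the log2 scale among the arrays, 87 spanned over 2 and 16 over 3. Replicate 3 was the array apart and higher in 605 of them (6.09% of the genes tested) and the array apart and lower in 493 (4.96%). Replicate 1 stood apart in 47 upwards and 52 downwards, and replicate 2 in 64 and 86. Genes detected on 1 array alone, 330, 316 and 489 for replicates 1, 2 and 3, entered the 9932 only through that array. How many of them are among the 605 was not counted, so the 605 are not independent of detection on replicate 3. Without replicate 3, the other pair differed by over 1 in 88 genes. The share spanning over 1 was 15.4% at levels from 4 to 6, 19.7% from 6 to 8 and 12.6% from 8 to 10. It was 6.996% from 10 to 12, 2.04% from 12 to 14 and 0 of 65 genes above 14. Replicate 3 also differed in signal scale and in the share of signal at the bright end, and a link of these to the counts was not tested. The count of genes spanning over 1 was 1229 with cyclic loess and 1438 with median scaling in place of quantile normalization. It was 998 when only genes detected on all 3 arrays were counted, which leaves out the genes detected on 1 or 2.

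Among genes at or above the median level of 8.52, the 20 with the largest SD had replicate 3 as the highest array in 13 and the lowest in 7. The largest spread was that of Tcstv3, a gene of the cleavage-stage embryo, with 8.28, 8.996 and 11.83. Zscan4c, which acts on telomeres and marks a rare and passing state of stem cells resembling the early cleavage embryo, read 9.69, 9.99 and 12.58. Both belong to gene families with near-identical copies, so the copy is uncertain.

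The remaining genes with replicate 3 highest were of mixed kinds. Ptpre, a tyrosine phosphatase, read 8.78, 7.94 and 11.23, but its other detected probe read 5.30, 5.72 and 5.13. Prf1, the pore-forming protein of killer cells, read 8.90, 8.55 and 11.22. Erich5 read 9.80, 9.46 and 12.01. For Prf1 and Erich5 a further probe was not above background on any array. Terf2ip, the telomere protein Rap1, read 8.48, 8.59 and 10.63, and its next probe 7.45, 6.80 and 7.93. Psmd11, a proteasome subunit, read 8.70, 7.99 and 10.25, whereas another probe read 6.999, 6.79 and 6.43. Mdh2, Sgf29, Dhx9, Slc35b1, H2bc15 and Zfhx2 completed the set, with replicate 3 between 9.82 for H2bc15 and 11.40 for Slc35b1. Dhx9 read 9.13, 8.02 and 10.155, so replicate 2 was farther from the middle value than replicate 3. Its other probes were not above background on any array.

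Genes with replicate 3 lowest were led by Acta2, the smooth muscle actin. It read 11.79, 12.04 and 10.001, and all 4 of its probes had their lowest level in replicate 3. Lrrc34 read 12.23, 12.10 and 10.27, and Nxt2, an mRNA export cofactor, 11.77, 11.85 and 9.97. Insig1, a sterol sensor of the endoplasmic reticulum, read 9.28, 9.20 and 7.45, with a second probe at 9.03, 8.89 and 7.49. A further detected probe read 7.14, 6.36 and 6.65, where replicate 3 was not the lowest. Pecam1, an adhesion molecule of stem and endothelial cells, read 9.63, 9.85 and 7.95, though its other probe read 6.52, 5.83 and 6.73. Adssl1 and Uap1l1 also had replicate 3 lowest. For these genes replicates 1 and 2 stood close together and replicate 3 away from both.

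**Figure D5:**
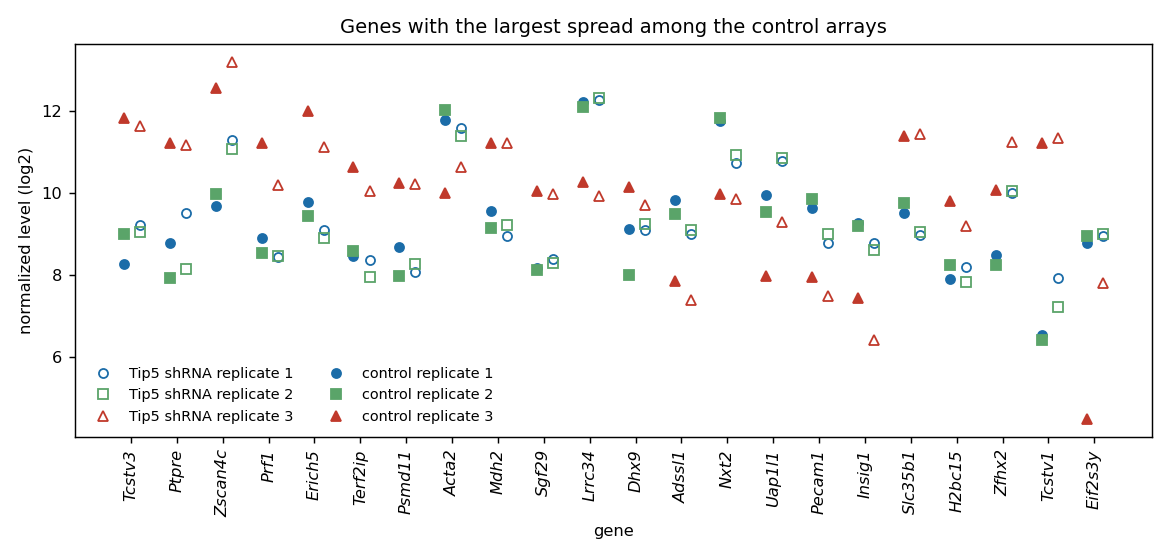
Log2 level of the 20 genes of largest SD, and of Tcstv1 and Eif2s3y, in each control array (filled points) and, beside it, in each Tip5 shRNA array (open points). Control replicate 3 is the highest control point for 13 of the 20 genes, such as Tcstv3 at 11.83, and the lowest for 7, such as Acta2 at 10.001.

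Other detected probes of the same gene followed in part. Of the 605 genes higher in replicate 3, 99 had another detected probe, and 68 of those probes (68.7%) were also higher there, against 50.7% over all genes with several detected probes. The median difference of replicate 3 from the mean of replicates 1 and 2 was 1.16 for the brightest probes and 0.32 for the others. Of the 493 genes lower in replicate 3, 118 of 150 other probes (78.7%) were also lower, against 49.3% of all, with medians of -1.12 and -0.41. The probes that chose the genes thus stood further out than the probes that did not.

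The Tip5 shRNA arrays carry replicate numbers too and did not choose these genes. Tip5 replicate 3 also differed in signal scale, with a median deposited signal of 219 against 129 and 127 in Tip5 replicates 1 and 2. Its 100 brightest probes held 12.4% of the background-corrected signal against 19.7% and 19.8%. A link of this shared difference in scale to the shares that follow was not tested. Of the 605 genes, 581 (96.0%) were also higher in Tip5 replicate 3 than in the mean of its replicates 1 and 2, against 48.5% of all genes, and of the 493 genes 445 (90.3%) were also lower, against 51.5%. They were higher by over 1 for 321 of the 605 (53.1%, against 6.77% of all genes) and lower by over 1 for 196 of the 493 (39.8%, against 5.09%).

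Of the 9 measured cleavage-stage genes, 4 were detected on all 3 arrays and 5 on 1 or 2, and 6 of the 9 spanned over 1, against 13.6% of all genes, with replicate 3 the array apart and higher in all 6. Besides Zscan4c and Tcstv3 these were Tcstv1 with 6.55, 6.42 and 11.23, Tdpoz4 with 4.88, 4.64 and 7.57, Usp17la with 4.58, 4.43 and 6.51, and Zfp352 with 4.51, 4.94 and 5.58. Tdpoz4, Usp17la and Zfp352 were not above background in replicates 1 and 2. They passed the filter of detection on at least 1 array only through replicate 3, where they were highest. The count of 6 is therefore not independent of that array. The log2 of the list's summed levels was 10.44, 10.80 and 13.62. In glycolysis, 4 of 18 detected members spanned over 1, each with replicate 3 lower, where 13.6% of all genes spanned over 1 and 4.96% had replicate 3 apart and lower: Hk1, Pfkp, Aldoc and Eno2. Pfkp, the platelet form of phosphofructokinase, read 11.96, 11.94 and 10.57.

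In the pluripotency list, 4 of 24 detected members spanned over 1, each with replicate 3 higher: Nanog, Sall4, L1td1 and Rif1. Of all genes, 13.6% spanned over 1, which is near the share in this list, and 6.09% had replicate 3 apart and higher. Sall4, a zinc finger partner of Pou5f1, read 11.22, 10.90 and 12.68, yet another detected probe of it read 9.22, 9.32 and 8.45. L1td1, an RNA-binding protein, read 9.36, 9.76 and 10.99. Of 24 detected signalling genes, 7 spanned over 1 (13.6% of all genes), and in 5 replicate 3 was apart and higher (6.09% of all genes): Id1, Id3, Spry4, Dusp6 and Axin2. Dusp6, a phosphatase that restrains Fgf signalling, read 10.11, 10.11 and 11.33. Lifr and Lefty2 completed the 7. In the endoderm list, 3 of 14 detected members, Gata6, Dab2 and Col4a2, spanned over 1 (13.6% of all genes). Replicate 3 was apart and higher in 2 of them, Dab2 and Col4a2 (6.09% of all genes). For Gata6 the array apart was replicate 2, which was lower. Dab2 read 7.68, 6.67 and 8.79.

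Eif2s3y, a translation factor gene on the Y chromosome, had the largest SD after Tcstv1 among the named genes detected on at least 1 array. It read 8.79 and 8.95 in replicates 1 and 2 and 4.50 in replicate 3, where its detection p-value was 0.525 and it was not above background. Zfy1, also on the Y chromosome, was detected at 5.41 and 5.37 in replicates 1 and 2 and read 4.46 in replicate 3. Uty went another way, detected near the limit on replicates 1 and 3 and not on replicate 2. Kdm5d, Zfy2, Sry, Usp9y and Xist were on none. In the Tip5 shRNA arrays Eif2s3y read 8.95, 8.998 and 7.82.

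At the other end, the 10 steadiest genes at or above the median level had SDs from 0.0021 to 0.0104. They were Mad2l1bp, which silences the spindle checkpoint, the RNA-binding protein Rbpms, Amhr2, Ubxn1, the proteasome subunit Psma5, Krtcap2, the splicing factor Cdc5l, Scamp1, Trappc4 and Fam207a. Mad2l1bp read 9.74, 9.74 and 9.73, and Psma5 read 13.83, 13.84 and 13.84. Quantile normalization gives genes of equal rank the same value, so agreement this close reflects nearly equal ranks on the 3 arrays.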

How the data were processed

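Total RNA of 6 cultures was labelled as biotinylated cRNA and hybridised to 6 single-colour Illumina bead arrays, 3 of them control shRNA. The authors deposited, per the file headers, a linear intensity and a detection p-value for each of 25697 probes and array. The values show no background subtraction, and the p-values move in steps of 1 in 798, as a share of negative control probes would. Per the submitters' processing notes, GenomeStudio 2011.1 was used, in a role they do not state, and no genome build for the probes is given in the sources used here. A second deposited table of processed intensity is a straight line of the same signal above a floor of 1, with linear scale and no centring. Its control medians were 16.2, 16.4 and 16.6, and it served as an alternative on log2(value + 16).

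From the deposited intensity, limma 3.58.1 in R 4.3.3 computed log2 levels on all 6 arrays (normexp with the background taken from the detection p-values, an offset of 16, then quantile normalization). In the platform annotation, 23978 probes had 1 symbol, 0 had several and 1719 had none. Symbols were updated through Entrez identifiers with the GRCm38.p6 gene table for 23962 probes, and 16 kept an old symbol. Each of 16593 genes stands by its probe of highest mean level, and was detected where any probe had p under 0.05. A gene spans over 1 where its highest and lowest array differ by more than 1, and the array apart is the one farther from the middle value. Named genes were the 5 markers, the 25 brightest, the 4 highest and up to 6 undetected members of each list with members that go against it, and the 20 most and 10 least variable at or above the median level. Members and lists were chosen with earlier results of these data known. No test was made between samples. The steps were tested on simulated data. Alternatives changed the detection threshold, arrays, probe rule, background, offset, normalization, filter and table.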

Additional observations from a re-analysis of the deposited data

How the results depend on the processing

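No paired analysis was possible because no result comes from a test between groups. The count of genes spanning over 1 among the control arrays depended most on the processing. It was 1347 as reported, 634 when the offset was 50 rather than 16 and 325 without any background correction, both of which shrink differences of dim genes by construction. It ranged from 88, without replicate 3, to 1006, without replicate 1, and was 883 without replicate 2. It was 1248 when the control arrays were normalized alone, 1438 with median scaling, 1229 with cyclic loess, 1876 with the authors' processed values and 998 for genes detected on all 3 arrays. Under those 4 other scalings and tables and both background settings, 14 to 19 of the 20 most variable genes were shared, and all 20 kept replicate 3 on the same side. Genes detected on all 3 arrays numbered 7216 at detection p under 0.01, 7960 by the brightest probe and 8141 to 8323 when 1 array was left out. Genes on none numbered 8096 at detection p under 0.01 and 6977 to 7150 with 1 array left out. Of the 100 brightest, 100 were shared under the control arrays alone, the deposited signal and the authors' values, 94 to 95 with 1 array left out and 77 when probes of a gene were averaged. List members detected on all 3 arrays numbered 263 at detection p under 0.01 and 287 to 292 with 1 array left out. The share in the lowest CpG band ranged from 13.3% to 15.1% and in the highest from 76.1% to 76.7%, an alternative chosen after seeing the data. For single lists, 90 counts stayed within 1.5 times of the reported one and 6 did not: at detection p under 0.01, 0 blood, 1 Hox and 5 interferon genes were detected on all 3 arrays, and without replicate 3, 1 liver and pancreas gene and 2 Y-linked genes, or 1 Y-linked gene without replicate 2. Signal over background limits every level near 5.05.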

Other observations

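Below the median level, the genes of widest spread were chosen after their values were seen. Over any level, 19 of the 20 genes of largest SD had replicate 3 highest and 1, Eif2s3y, had it lowest. Lpar4, Tdpoz4, Rapgef6 and Tdpoz2 passed the filter of detection on at least 1 control array only through replicate 3. The count of 19 is therefore not independent of that array. Genes of the Prame-like family, which is expressed in germ cells and early embryos, were among the 20. Pramel20 read 6.41, 6.59 and 9.41 in the control arrays, and Pramel37 read 6.71, 7.53 and 9.59. Pramel17 read 5.11, 4.62 and 7.39. The family has near-identical copies, so the copy is uncertain. Tdpoz2, a relative of Tdpoz4, read 4.64, 4.73 and 7.35 and was detected on replicate 3 alone. Zbtb2, a zinc finger repressor, read 6.44, 6.35 and 9.37.

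In the Tip5 shRNA arrays, replicate 3 was also the highest array for Pramel20, Pramel37, Zbtb2 and Lpar4. Pramel20 read 6.72, 6.59 and 8.998 in Tip5 replicates 1, 2 and 3, and Pramel37 read 6.90, 6.76 and 9.25. Zbtb2 read 6.91, 6.83 and 8.21. Lpar4, a lysophosphatidic acid receptor, read 4.72, 4.76 and 7.83 in the control arrays and 5.18, 6.57 and 8.74 in the Tip5 shRNA arrays.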
